A study of Mus musculus with 32 samples.

Results

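The 36 genes described here encode aminoacyl-tRNA synthetases, and all 36 were found among the 18588 genes of a log2 signal table from mouse microglia. They were chosen by family name, 20 for the cytosolic enzymes and 16 for the mitochondrial ones. The family was singled out because Gars had been seen to be higher in the tau transgenic microglia at all ages. The genotype differences of Gars are therefore given as a description without a test, and only the other 35 members were tested.

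Aminoacyl-tRNA synthetases join each amino acid to its cognate tRNA, the step that sets the reading of the genetic code. Most cytosolic and mitochondrial enzymes are products of separate nuclear genes, the mitochondrial set commonly carrying the suffix 2, while Gars and Kars each supply both compartments. Several cytosolic enzymes are held with non-enzymatic scaffold proteins in a multisynthetase complex. Many synthetase genes are known targets of ATF4, a transcription factor whose translation rises when eIF2 is phosphorylated under amino acid shortage or other stress, and Wars is known to be induced by interferon.

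The libraries were total RNA of CD11b-positive cells isolated with magnetic MicroBeads from the forebrains of female mice aged 2, 4, 6 or 8 months. The rTg4510 mice express human four-repeat tau with the P301L change in forebrain neurons, through a tetracycline-responsive transgene driven by a tTA activator under the CaMKIIα promoter, so the transgene is not made by the microglia themselves. The WT mice, of strain 129/FVB F1 in the labels, were littermates without either transgene, so the effect of tTA alone cannot be told apart from that of tau. Each library came from the pooled forebrains of 8 to 10 animals, and 28 of 32 libraries were used, 4 of each genotype at 2 and 6 months and 3 of each at 4 and 8 months, since replicate 3 of both genotypes at 4 months and replicate 4 of both at 8 months had failed the authors' quality control.

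The deposited values are log2 gene signals, and every library had the same median of 5.63. Read depth is unknown, so no interval for counting error is given. All 10 microglial markers were in the table. Over all ages their summed log2 signal was 14.5 to 15.0 in the rTg4510 libraries and 14.8 to 15.2 in WT. At 2 months it was 14.840 to 14.995 in rTg4510 and 14.993 to 15.248 in WT. Later the rTg4510 libraries lay below all WT libraries of their age, at 14.73 to 14.82 against 14.91 to 15.14 at 4 months. The sums were 14.71 to 14.92 against 15.04 to 15.21 at 6 months, and 14.51 to 14.62 against 14.77 to 15.04 at 8 months. Single microglial markers moved with genotype: at 6 months 3 of 10 were higher and 6 of 10 lower (FDR under 0.05). Over all genes 19.1% were higher and 14.9% lower at that age, the shares beside which the 6-month marker counts here stand. The 6 neutrophil markers summed to 7.26 to 7.95 in rTg4510 and 8.86 to 10.2 in WT at 6 months, with 5 of 6 lower. At 8 months 5 of 6 were also lower, against 9.78% of all genes. Of 7 neuronal markers, Rbfox3, Nefl, Gad1 and Slc17a7 were not in the table, and of the 3 others 0 passed at 2, 4 and 8 months and 1 was lower at 6 months. At 6 months 1 of 6 astrocyte markers was higher and 2 lower, 1 of 4 endothelial markers was higher and 2 lower, 1 of 5 border macrophage markers was lower, and 0 of 6 oligodendrocyte and 0 of 4 lymphocyte markers passed. Whether a difference in cell makeup had a part in the synthetase differences was not tested. In such bulk samples fewer cells of a type and less RNA per cell cannot be told apart.

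Promoter sequences are shown first for the members whose start lies close to the core of the C/EBP-ATF response element, the composite site bound by ATF4 (TGATGNAA, searched on both strands). RefSeq windows on GRCm38.p6, from 250 bases before to 50 after a gene start, were given for 13 of the 20 cytosolic and 14 of the 16 mitochondrial genes. Of the cytosolic genes, Cars, Hars, Lars, Nars, Rars, Vars and Wars had no window and were not searched. The motif was in the windows of Aars, Gars, Iars, Tars and Yars, 5 of 13 cytosolic genes, and in 0 of 14 mitochondrial genes. It was in 4.51% of all 27025 genes with a window (3.97% of the 32851 promoter windows) and in 8 of 24 genes of the ATF4 list outside the family. The bases upstream of the start are printed for 2 synthetases and for Asns, asparagine synthetase of amino acid synthesis and a known ATF4 target, 5′ to 3′ on the strand of the gene, with the match in capitals. The matches of Gars and Tars read as the motif on the opposite strand, that of Asns on the strand of the gene. They lie at chr6:55037945-55038000 (plus strand) for Gars, chr15:11399659-11399699 (minus) for Tars and chr6:7693214-7693243 (minus) for Asns. The stretch of Asns is 30 bases long, as GENCODE M21 has it within an untranslated exon of a transcript that starts further upstream.
Gars: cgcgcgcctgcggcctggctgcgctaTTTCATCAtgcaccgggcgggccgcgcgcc
Tars: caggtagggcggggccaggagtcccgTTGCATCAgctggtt
Asns: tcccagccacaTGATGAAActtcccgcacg

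Counted from the start base of each window as 0, the match of Gars began at position -30, that of Tars at -15 and that of Asns at -23. The matches of Iars and Yars lay after the start, at 7 and 3. The windows of Eprs, Qars, Sars, Farsb, Mars1 and Iars2 held no match, and Vars, Rars and Cars had no window. For Eprs, the member with the largest difference, the last 60 bases before the window's start (chr1:185362984-185363043, plus strand) are given without capitals; that start lies 1627 bases inside the gene span, which begins at an earlier transcript start.
Eprs: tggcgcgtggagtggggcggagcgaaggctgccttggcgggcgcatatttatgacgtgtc

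A match in such a window is a description of the letters and not evidence of a bound site. The core of the interferon-stimulated response element (GAAANNGAA, both strands) was in 1 of 13 cytosolic genes with a window, Qars. It was in 9.76% of all genes with a window and in 8.56% of all windows. No window was given for Wars, so its promoter was not searched.

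Of the 35 members tested, 2 were higher in rTg4510 at 2 months, 5 were higher and 1 lower at 4 months, 6 were higher and 1 lower at 6 months, and 3 were higher and 1 lower at 8 months (limma, FDR under 0.05 over all 18588 genes). Over all genes, 4.76% were higher and 1.27% lower at 2 months, 14.1% higher and 9.10% lower at 4 months, 19.1% higher and 14.9% lower at 6 months, and 16.0% higher and 9.78% lower at 8 months. Of all these calls 1 was mitochondrial, that of Iars2 at 6 months. Without Gars, the median log2 fold change of the 19 other cytosolic genes was 0.10, 0.10, 0.11 and 0.05 at 2, 4, 6 and 8 months, that of the 16 mitochondrial genes was -0.04, -0.03, -0.09 and -0.07, and that of all genes was 0.01, -0.04, -0.04 and -0.01. A further threshold of 1.5 fold defined a differentially expressed gene (DEG), which 1.98%, 13.8%, 19.8% and 15.9% of all genes met at the 4 ages. Among the 35 members 0, 1, 1 and 1 met it, in each case Eprs. With all 32 libraries 0, 2, 2 and 1 of the 35 passed at the 4 ages. Leaving out rTg4510 replicate 1 or 3 or WT replicate 3 or 4 left 1 at 2 months, and leaving out WT replicate 4 left 3 at 4 months. A fit of only the 2 groups compared lost the calls of Eprs at 2 months, of Sars, Farsb, Vars and Cars at 4 months, of Mars1 and Iars2 at 6 months and of Sars and Mars1 at 8 months, moderated variances lost those of Eprs at 2 months and of Vars and Cars at 4 months, and quantile normalization lost those of Eprs at 2 months and of Vars at 4 months.

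**Figure D1:**
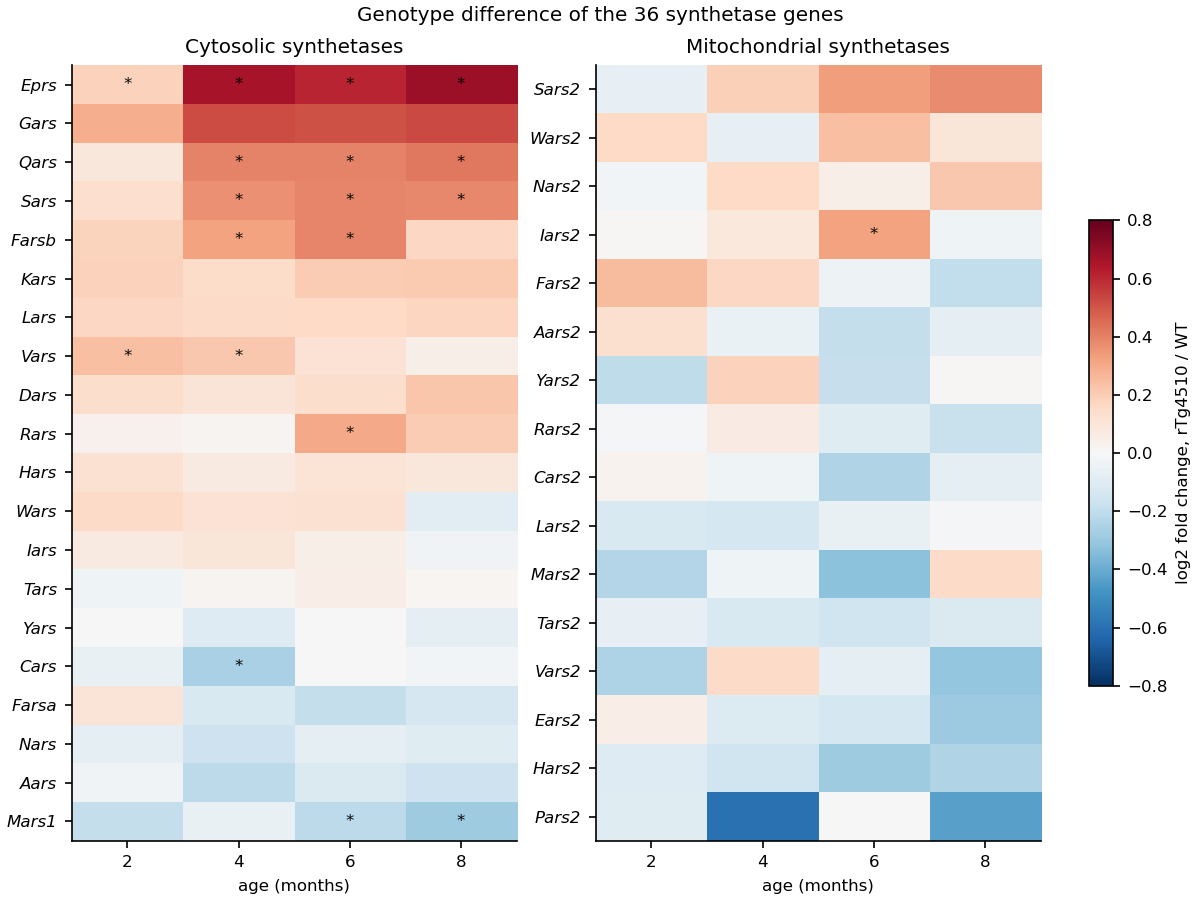
Log2 fold change of rTg4510 over WT for the 20 cytosolic (left) and 16 mitochondrial (right) synthetase genes at 4 ages in months, ordered by their mean over the ages; red is higher and blue lower in rTg4510, and an asterisk marks FDR under 0.05 (limma; not marked for Gars, which was not tested). Eprs reached 0.68 at 8 months and Mars1 fell to -0.28, while the only mitochondrial asterisk is that of Iars2 at 6 months.

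Eprs, the bifunctional enzyme that charges tRNAs with glutamate and proline and sits in the multisynthetase complex (chr1:185361417-185428360, GRCm38.p6), had the largest difference of the members. In WT its log2 signal was 7.23, 7.16, 7.19 and 7.08 at 2 months, 7.16, 7.19 and 7.22 at 4 months, 7.06, 7.14, 7.06 and 7.10 at 6 months, and 7.01, 7.01 and 7.04 at 8 months. In rTg4510 it was 7.38, 7.26, 7.34 and 7.41 at 2 months, 7.82, 7.90 and 7.81 at 4 months, 7.65, 7.69, 7.58 and 7.86 at 6 months, and 7.65, 7.72 and 7.74 at 8 months. Every rTg4510 library lay above every WT library of its age, by a narrow gap at 2 months and a wide one later. The log2 fold change was 0.18 ± 0.05 (SE) at 2 months, 0.66 ± 0.05 at 4 months, 0.61 ± 0.05 at 6 months and 0.68 ± 0.05 at 8 months (limma FDR 0.016, 9.5e-09, 1.2e-09 and 4.6e-09). The difference at 2 months did not pass without rTg4510 replicate 1 (0.17, FDR 0.058), without rTg4510 replicate 4 (0.16, FDR 0.062) or without WT replicate 4 (0.16, FDR 0.071), nor after quantile normalization (0.15, FDR 0.066).

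Gars, glycyl-tRNA synthetase (chr6:55038001-55079504), was the gene whose values led to the choice of the family. Its WT signals were 6.11, 6.39, 6.35 and 6.18 at 2 months, 6.38, 6.40 and 6.33 at 4 months, 6.40, 6.41, 6.30 and 6.39 at 6 months, and 6.16, 6.36 and 6.42 at 8 months. Its rTg4510 signals were 6.42, 6.55, 6.58 and 6.66 at 2 months, 6.74, 6.98 and 6.96 at 4 months, 6.71, 6.87, 6.95 and 6.99 at 6 months, and 6.64, 6.96 and 6.92 at 8 months. The groups did not overlap at any age, as the choice implies, although at 2 months the lowest rTg4510 library was 6.42 and the highest WT library 6.39. Its log2 fold change was 0.29, 0.52, 0.51 and 0.53, with SE of 0.08 to 0.10.

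Qars, which charges glutamine and belongs to the complex (chr9:108508005-108515941), overlapped between genotypes at 2 months and not later. WT libraries read 5.38, 5.67, 5.61 and 5.52 at 2 months, 5.55, 5.57 and 5.62 at 4 months, 5.86, 5.41, 5.70 and 5.62 at 6 months, and 5.62, 5.65 and 5.60 at 8 months. The rTg4510 libraries read 5.62, 5.57, 5.75 and 5.61 at 2 months, 5.99, 5.89 and 6.07 at 4 months, 6.12, 5.89, 6.03 and 6.12 at 6 months, and 5.95, 6.11 and 6.08 at 8 months. The 6-month WT libraries were the most spread (SD 0.19, n = 4), and the highest of them nearly reached the lowest rTg4510 library. Qars differed by a log2 fold change of 0.09 ± 0.08 at 2 months (FDR 0.65) and 0.40 ± 0.09, 0.39 ± 0.08 and 0.42 ± 0.09 at 4, 6 and 8 months (limma FDR 0.0021, 0.00040 and 0.0011).

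Sars, the seryl-tRNA synthetase outside the complex (chr3:108424864-108445259), was close to Qars in sign and size. Its WT signals were 6.61, 6.55, 6.63 and 6.84 at 2 months, 6.74, 6.64 and 6.72 at 4 months, 6.86, 6.54, 6.52 and 6.49 at 6 months, and 6.45, 6.58 and 6.75 at 8 months. Its rTg4510 signals were 6.80, 6.68, 6.83 and 6.85 at 2 months, 7.19, 6.96 and 7.04 at 4 months, 6.95, 7.02, 6.96 and 7.05 at 6 months, and 6.94, 7.03 and 6.96 at 8 months. The genotypes overlapped at 2 months and were apart from 4 months on. For Sars the log2 fold change was 0.13 ± 0.08 at 2 months (FDR 0.43) and 0.37 ± 0.09, 0.39 ± 0.08 and 0.38 ± 0.09 later (limma FDR 0.0046, 0.00043 and 0.0028).

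Farsb, the beta subunit of the cytosolic phenylalanine enzyme (chr1:78417958-78488897), was higher at 4 and 6 months. WT libraries read 5.29, 5.08, 5.14 and 5.25 at 2 months, 5.43, 5.38 and 5.19 at 4 months, 5.32, 5.24, 5.33 and 5.26 at 6 months, and 5.25, 5.26 and 5.32 at 8 months. The rTg4510 libraries read 5.21, 5.38, 5.40 and 5.48 at 2 months, 5.63, 5.61 and 5.73 at 4 months, 5.56, 5.94, 5.68 and 5.51 at 6 months, and 5.36, 5.52 and 5.45 at 8 months. The groups overlapped at 2 months only. The log2 fold change was 0.32 ± 0.09 at 4 months and 0.39 ± 0.08 at 6 months (limma FDR 0.011 and 0.00041), against 0.18 ± 0.08 at 2 months and 0.16 ± 0.09 at 8 months, which did not pass (FDR 0.23 and 0.20). At 4 months it did not pass without rTg4510 replicate 4 (0.28, FDR 0.052) or without WT replicate 4 (0.25, FDR 0.077), and with all 32 libraries the 4-month value was -0.05 (FDR 0.90), as the excluded rTg4510 library read 3.91. Farsa, the alpha subunit of the same enzyme, had no call at any age, with log2 fold changes of 0.10, -0.12, -0.19 and -0.13. In GENCODE M21 the exons of Farsb overlap those of Sgpp2 on the other strand by 248 bases.

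**Figure D2:**
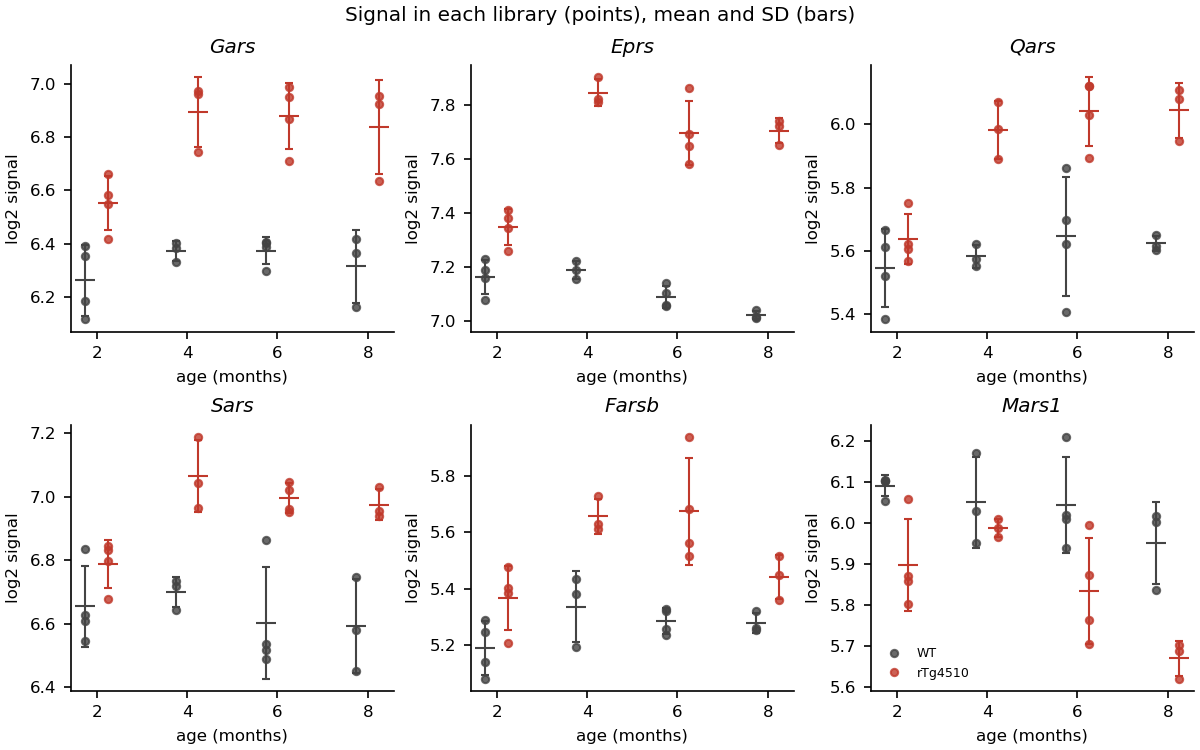
Log2 signal of 6 cytosolic synthetase genes in the 28 libraries by age in months; points are libraries, grey WT and red rTg4510, with the mean and SD of each group of 3 or 4 (axes do not start at 0). From 4 months on the rTg4510 libraries of Gars, Eprs, Qars, Sars and Farsb lie above all WT libraries of their age, while Mars1 at 8 months lies below, at 5.62 to 5.70 against 5.84 to 6.02.

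Mars1, the methionine enzyme of the complex (chr10:127296221-127311786), moved the other way. Its WT signals were 6.05, 6.10, 6.10 and 6.11 at 2 months, 5.95, 6.03 and 6.17 at 4 months, 5.94, 6.21, 6.01 and 6.02 at 6 months, and 5.84, 6.00 and 6.02 at 8 months. Its rTg4510 signals were 5.80, 5.86, 5.87 and 6.06 at 2 months, 5.99, 6.01 and 5.97 at 4 months, 5.76, 6.00, 5.70 and 5.87 at 6 months, and 5.70, 5.62 and 5.69 at 8 months. The groups overlapped at 2, 4 and 6 months and were apart at 8 months. Mars1 differed by a log2 fold change of -0.19 ± 0.07, -0.06 ± 0.08, -0.21 ± 0.07 and -0.28 ± 0.08 at the 4 ages, and passed at 6 and 8 months (limma FDR 0.11, 0.62, 0.019 and 0.0091). At 6 months it did not pass without rTg4510 replicate 1 (-0.19, FDR 0.056), without rTg4510 replicate 3 (-0.17, FDR 0.077) or without WT replicate 2 (-0.16, FDR 0.085), and at 2 months it passed without rTg4510 replicate 4 (-0.25, FDR 0.031). In GENCODE M21 its exons overlap those of Ddit3 on the other strand by 68 bases, and the use of strand in counting is not given in the sources used here.

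Vars, which charges valine (chr17:35000907-35016329), was higher at the younger ages. WT libraries read 4.35, 4.36, 4.24 and 4.35 at 2 months, 4.30, 4.40 and 4.27 at 4 months, 4.34, 4.46, 4.28 and 4.21 at 6 months, and 4.35, 4.14 and 4.39 at 8 months. The rTg4510 libraries read 4.51, 4.56, 4.65 and 4.55 at 2 months, 4.67, 4.52 and 4.44 at 4 months, 4.44, 4.38, 4.37 and 4.56 at 6 months, and 4.34, 4.40 and 4.29 at 8 months. The groups were apart at 2 and 4 months and overlapped afterwards. The log2 fold change was 0.24 ± 0.06, 0.22 ± 0.07, 0.11 ± 0.06 and 0.05 ± 0.07 (limma FDR 0.020, 0.035, 0.17 and 0.68). At 2 months it did not pass without rTg4510 replicate 3 (0.22, FDR 0.080) or WT replicate 3 (0.22, FDR 0.081), and at 4 months it did not pass without rTg4510 replicate 1 (0.15, FDR 0.18) or 2 (0.23, FDR 0.061) or without WT replicate 1 (0.20, FDR 0.092) or 4 (0.19, FDR 0.13), nor after quantile normalization (0.24, FDR 0.058). The calls of Vars at 2 and 4 months were also lost in a fit with a term for same-numbered libraries. At these ages the numbers were not taken to pair libraries, as the correlations of same-numbered and different-numbered libraries overlapped. At 2 months they overlapped narrowly (r = 0.06 to 0.17 against -0.19 to 0.08). A pairing is therefore not excluded there, and the 2-month call of Vars depends on that choice.

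The other 3 members called each passed at 1 age. Rars, the arginine enzyme of the complex, differed by 0.31 ± 0.07 at 6 months, where rTg4510 libraries lay at 7.23 to 7.44 and no WT library was above 7.12 (limma FDR 0.0016). Its 8-month value of 0.21 ± 0.08 did not pass (FDR 0.067), although the groups did not overlap and it passed without WT replicate 2 (0.26, FDR 0.040). Iars2, the mitochondrial isoleucine enzyme, differed by 0.32 ± 0.07 at 6 months (FDR 0.0014), with rTg4510 libraries at 5.83, 5.90, 5.64 and 5.92 and WT at 5.44, 5.52, 5.35 and 5.70, so that the groups overlapped by 1 library of each. Its exons overlap those of Rab3gap2 on the other strand by 2034 bases. Cars, which charges cysteine, was lower by a log2 fold change of -0.26 ± 0.09 at 4 months, with rTg4510 at 5.44, 5.55 and 5.47 and WT at 5.69, 5.61 and 5.93 (FDR 0.049). That call was lost without rTg4510 replicate 1 (-0.23, FDR 0.13), 2 (-0.29, FDR 0.060) or 4 (-0.25, FDR 0.11) and without WT replicate 1 (-0.29, FDR 0.063) or 4 (-0.16, FDR 0.27), and its values were -0.06, 0.00 and -0.02 at 2, 6 and 8 months. The exons of Cars overlap those of Gm15580, a processed pseudogene, on the other strand by 211 bases.

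Of the other cytosolic enzymes, Tars, Yars, Iars, Wars, Hars, Nars, Aars, Dars, Lars and Kars passed at no age. The smallest mean difference over the ages was that of Tars, which charges threonine, with log2 fold changes of -0.03, 0.02, 0.05 and 0.01. Yars, the tyrosine enzyme, followed with 0.00, -0.10, 0.00 and -0.07, and then Fars2, the mitochondrial phenylalanine enzyme, with 0.26, 0.16, -0.04 and -0.20. Lars and Kars of the complex were positive at every age without passing, at 0.17, 0.16, 0.16 and 0.17 for Lars and 0.19, 0.15, 0.20 and 0.21 for Kars. Aars, the alanine enzyme whose promoter window holds the ATF4 core, was at -0.03, -0.21, -0.11 and -0.16. The start of that window lies 6064 bases inside the gene span, which begins further upstream. The exons of Aars overlap those of Exosc6 on the same strand by 1326 bases. Iars, Tars and Yars, which also hold the core, had no call between genotypes either.

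Wars, the tryptophan enzyme, was at 0.15, 0.12, 0.12 and -0.09 without a call. Of 10 other interferon-induced genes, 5 were higher and 2 lower at 6 months, against 19.1% and 14.9% of all genes: the chemokine gene Cxcl10 by 1.42 ± 0.40 and Isg15, a ubiquitin-like modifier, by 0.94 ± 0.36 (limma FDR 0.0087 and 0.048), and the guanylate-binding protein genes Gbp3 by -1.28 ± 0.17 and Gbp2 by -0.84 ± 0.24 (FDR 3.4e-06 and 0.0098).

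Among the 16 mitochondrial members the largest single difference was that of Pars2, the proline enzyme, at -0.60 ± 0.25 at 4 months, which did not pass (limma FDR 0.091). Hars2, the histidine enzyme, was negative at every age, at -0.11, -0.16, -0.28 and -0.24, and its exons overlap those of Hars by 195 bases. Sars2, the serine enzyme, was at -0.06, 0.19, 0.33 and 0.38 and did not pass either. The median SE of a genotype difference was 0.156 for the mitochondrial genes, 0.083 for the cytosolic genes and 0.176 over all genes.

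The multisynthetase complex holds 8 of the cytosolic enzymes, Dars, Eprs, Iars, Kars, Lars, Mars1, Qars and Rars. At 6 months Eprs, Qars and Rars were higher and Mars1 lower, and 4 of 8 did not pass. At 2, 4 and 8 months 1, 2 and 3 of the 8 passed, and over all genes 6.03%, 23.2%, 34.1% and 25.7% passed at the 4 ages in either direction. Of the 3 scaffold genes, Aimp1 was higher at 6 months by 0.67 ± 0.11 and at 8 months by 0.62 ± 0.12 (limma FDR 3.3e-05 and 0.00052). At 6 months its libraries read 7.05, 7.26, 6.72 and 7.24 in rTg4510 and 6.34, 6.46, 6.47 and 6.31 in WT, with no overlap. Aimp2 and Eef1e1 were at -0.03 and 0.06 at that age and passed at none.

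Of 14 paralogs, accessory and tRNA-editing genes, 0, 1, 2 and 1 passed at the 4 ages, all lower in rTg4510, against 1.27%, 9.10%, 14.9% and 9.78% of all genes lower. Xpot, the exporter of tRNA from the nucleus, was at -0.29 ± 0.09, -0.47 ± 0.08 and -0.31 ± 0.09 at 4, 6 and 8 months (limma FDR 0.022, 6.8e-05 and 0.013). At 6 months its rTg4510 libraries were 5.78, 5.66, 5.57 and 5.94 and its WT libraries 6.38, 6.21, 6.09 and 6.13. Qrsl1, a subunit of the mitochondrial amidotransferase that makes glutaminyl-tRNA without a mitochondrial glutamine enzyme, was at -0.49 ± 0.14 at 6 months (FDR 0.012).

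Of the 27 genes listed for ATF4 and its targets outside the family, 25 were in the table (Trib3 and Cth were not), and 0, 8, 10 and 8 were higher at 2, 4, 6 and 8 months, with 1 lower at 6 and 1 at 8 months. Over all genes 4.76%, 14.1%, 19.1% and 16.0% were higher, and 14.9% and 9.78% were lower at 6 and 8 months. The gene lower at 8 months was Ddit4, with a log2 fold change of -1.45. Its mean signal at that age was 4.12 in rTg4510 and 5.57 in WT. The list's median log2 fold change was 0.13, 0.25, 0.30 and 0.40. Psat1, of serine synthesis, read 5.95, 6.10, 6.10 and 6.00 in rTg4510 and 4.41, 4.21, 4.60 and 4.40 in WT at 6 months, a log2 fold change of 1.63 ± 0.22 (limma FDR 5.2e-06). Asns read 4.59, 4.75, 4.73 and 4.55 against 3.80, 3.03, 3.98 and 3.89, a log2 fold change of 0.98 ± 0.31 (FDR 0.018), and it was at -0.47 ± 0.31 at 2 months without passing. Neither gene overlapped between genotypes at 6 months. Chac1, which degrades glutathione, read 4.53, 4.35, 4.99 and 4.19 in rTg4510 and 3.69, 1.59, 3.46 and 1.65 in WT (FDR 0.0038), and since the lowest value of a library was 1.23 to 1.92, its WT libraries reach the bottom of the table and no fold is given. Atf3, a stress-induced factor of the same family, was higher by 1.08 ± 0.34 (FDR 0.016). Atf4 itself did not pass, with -0.04, 0.00, 0.23 and 0.25 at the 4 ages. Of 7 genes for eIF2 and its kinases, Eif2s3x and Eif2s2, both subunits, were higher by 0.69 ± 0.06 and 0.39 ± 0.06 at 6 months (FDR 1.1e-08 and 3.2e-05), while Eif2ak4, the kinase that senses uncharged tRNA, was at -0.22 ± 0.07 (FDR 0.020).

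**Figure D3:**
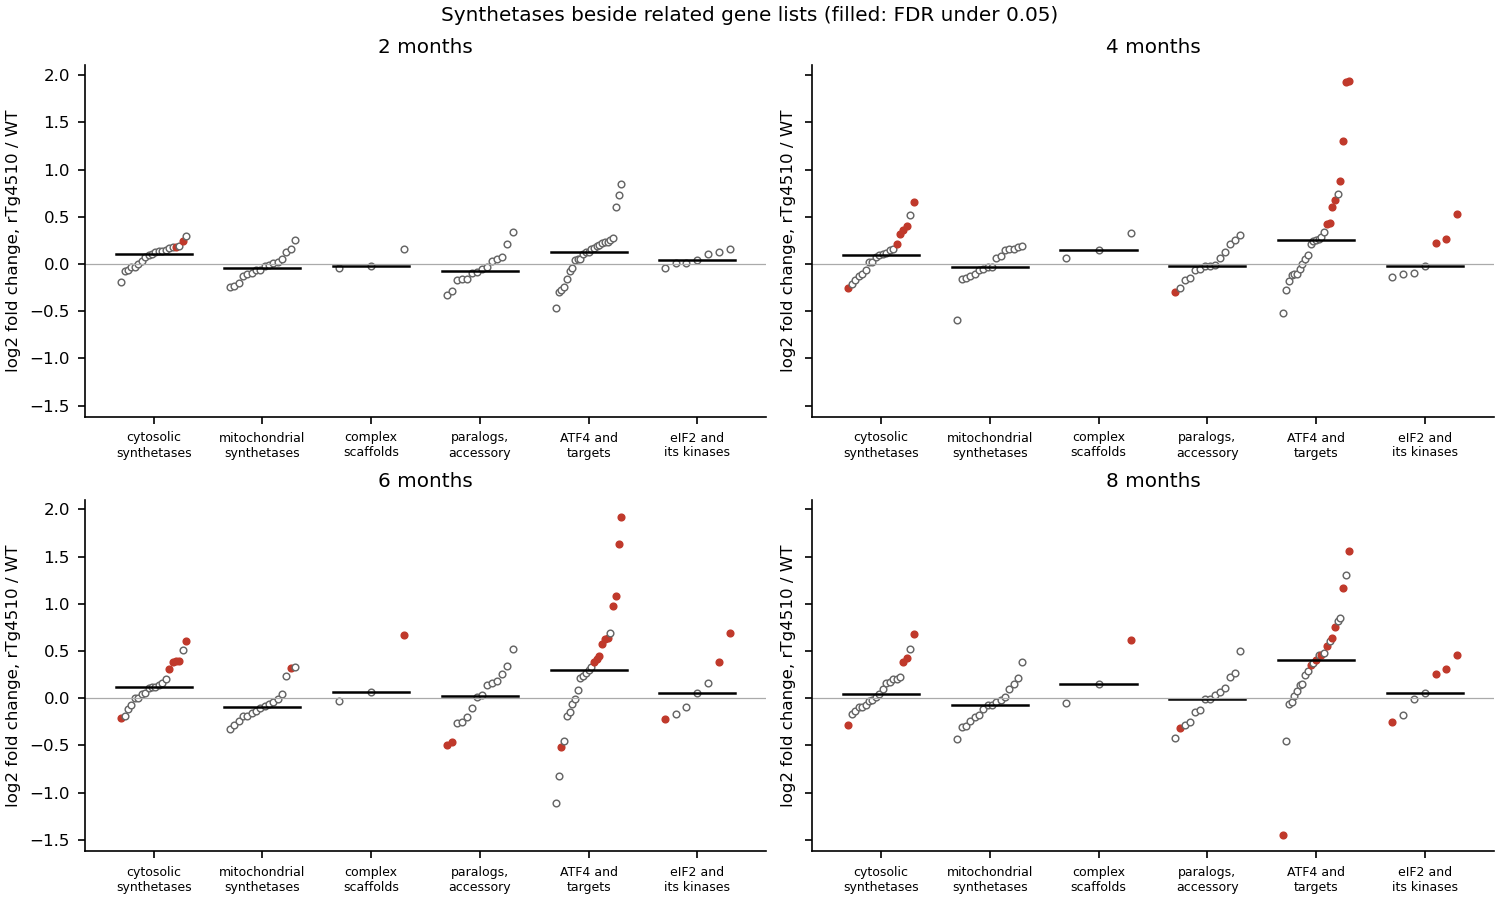
Log2 fold change of rTg4510 over WT for each gene (points) of the 20 cytosolic and 16 mitochondrial synthetases and of 4 related lists, in 1 panel for each age in months; filled points passed FDR under 0.05 (Gars is left unfilled, as it was not tested), and black bars are list medians, Gars left out. The median of the ATF4 list was 0.13 at 2 months and 0.40 at 8 months, against 0.10 and 0.05 for the cytosolic synthetases without Gars.

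To see whether the difference itself changed with age, the genotype differences at 4 and 2 months were compared in the same model. Eprs passed, with a log2 change of 0.47 ± 0.07 (limma FDR 2.2e-04), and the other 34 tested members did not, among them Qars with 0.31 ± 0.12 (FDR 0.13) and Sars with 0.23 ± 0.12 (FDR 0.30). Over all genes 7.33% passed. Between 8 and 4 months 0 members passed by limma (0 also at an unadjusted p under 0.05), and 0.145% of all genes did, and the value of Eprs was 0.03 ± 0.08.

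Within WT, 1 member passed between 8 and 2 months, Aars with a log2 fold change of -0.31 ± 0.08 (limma FDR 0.040), against 4.21% of all genes. That call was lost without WT replicates 2, 3 or 4 of 2 months or replicates 1 or 2 of 8 months, which each left 0 members. Within rTg4510, the members higher at 4 than at 2 months, beside Gars with 0.34, were Eprs by 0.50 ± 0.05, Qars by 0.35 ± 0.08, Farsb by 0.29 ± 0.08 and Sars by 0.28 ± 0.08 (FDR 5.8e-07, 0.0069, 0.021 and 0.029), and 15.2% of all genes passed. Between 8 and 2 months in rTg4510, where 21.7% of all genes passed, Qars was higher by 0.41 ± 0.08 and Eprs by 0.36 ± 0.05, and Aars, Ears2 of the mitochondrial set, Farsa, Mars1 and Vars were lower, at -0.44 ± 0.08, -0.44 ± 0.14, -0.36 ± 0.10, -0.23 ± 0.07 and -0.22 ± 0.07. The count of 4 members for 4 against 2 months was 2 without replicate 1 of 2 months or replicate 4 of 4 months, and the count of 7 for 8 against 2 months was 3 without replicate 1 of 8 months. These comparisons share the 2-month rTg4510 libraries. In WT the signal of Eprs went from 7.16 ± 0.06 (SD, n = 4) at 2 months to 7.02 ± 0.02 (n = 3) at 8 months, a log2 fold change of -0.14 ± 0.05 that did not pass (FDR 0.11).

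Correlations between members were computed once group means were removed. They were not computed between other genes, so no background level is given. Over the 28 libraries the median Pearson r was 0.14 for the 190 pairs of cytosolic genes, 0.06 for the 120 mitochondrial pairs and 0.07 for the 320 pairs across the classes, and the highest were 0.79 for Kars with Hars2 and 0.70 for Iars with Lars. For Gars the highest was 0.53, with Yars2. These values are descriptions, as the pairs share their libraries and their normalization.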

How the data were processed

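Microglial RNA was sequenced in 32 libraries, 28 of which were analysed. Per the study's methods, the authors added up the exon reads of each library, dropped an exon when its count was below 10 in over 80% of samples, fitted a robust linear model across the exons of a gene, and deposited log2 gene signals that were median normalized; the labels name the build GRCm38, and the aligner and annotation are not given in the sources used here. Because the deposited values are log2 signals without counts, no count model was used and depth is unknown. No columns were left unused.

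A linear model with 8 group means was fitted to every gene with limma 3.58.1 in R 4.3.3, with unmoderated variances and 20 residual degrees of freedom. FDR is the Benjamini-Hochberg adjusted p over all 18588 genes within a contrast, and DEGs had in addition to pass 1.5 fold. The fit was tested on simulated data. Entrez identifiers were matched to RefSeq symbols for 17828 genes (95.9%). Replicates are separate pools of animals. Same-numbered libraries of the 2 genotypes correlated in their deviations from the group means at r = 0.13 to 0.15 at 6 months and 0.15 to 0.29 at 8 months. At 2 and 4 months r was 0.06 to 0.17 and -0.10 to 0.12. For different-numbered libraries r was -0.19 to 0.08, -0.07 to 0.15, -0.13 to 0.09 and -0.26 to -0.03 at 2, 4, 6 and 8 months. The numbers were taken to pair libraries at 6 and 8 months, where every same-numbered r lay above every different-numbered r. The pairing comes from the data and the shared number, and at 2 months it is not excluded. The SE and FDR of the Results come from the fit without a term for these pairs. A replicate block was run as an alternative.

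The members and gene lists were chosen with earlier results of these data known. Values in every library are given for Gars, for DEGs and for members with FDR under 0.05 at 2 or more ages; for other lists up to 4 genes with the largest change at 6 months among those passing were named. The 3 members with the smallest mean difference were named. Rars, Iars2, Cars, other single members and Ddit4 of the ATF4 list were named after their values were seen. Alternatives were all 32 libraries, only the groups compared, moderated variances, quantile normalization, a filter at the 25th percentile of mean signal, a replicate block, leaving out each library, and other thresholds. Figures were drawn with matplotlib 3.10.9.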

Additional observations from a re-analysis of the deposited data

Results flagged for a closer look

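In 40 groups of 4 libraries (10 members) 3 held a library apart from the others, and chance flags about 1 in 20 groups. Sars in WT at 6 months read 6.86375 in replicate 1 against 6.48975 to 6.53675 in the others, and its call at that age did not depend on that library. Mars1 in WT at 2 months read 6.05375 in replicate 1 against 6.10225 to 6.10575, a gap within a narrow range. Vars in WT at 2 months read 4.23925 in replicate 3 against 4.34675 to 4.35675, and without that library the 2-month difference of Vars was 0.22 and did not pass (limma FDR 0.081).

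The genotype difference of Eprs was larger at 4 than at 2 months by 0.472 on the log2 scale, by the test of the interaction (limma FDR 2.2e-04). It was the only one of the 35 tested members to pass in the 2 interactions run, 4 against 2 and 8 against 4 months.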

How the results depend on the processing

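Counts in this paragraph leave out Gars, and in the analysis as reported 2, 6, 7 and 4 members had FDR under 0.05 at 2, 4, 6 and 8 months. With all 32 libraries these were 0, 2, 2 and 1, with 2 DEGs at 4 months, medians at 4 months of 0.011 (cytosolic, Gars included) and -0.13 (mitochondrial), a Farsb value at 4 months of -0.0488, 0, 1 and 2 members for WT 8 against 2 months, rTg4510 4 against 2 months and rTg4510 8 against 2 months, and 0 for the interaction of 4 and 2 months. With only the groups compared, 1, 2 and 2 members passed at 2, 4 and 8 months, 0 in WT with age and 2 for rTg4510 4 against 2 months. Moderated variances and quantile normalization each left 1 member at 2 months and 0 in WT with age, and quantile normalization left 0 DEGs at 6 months, where Eprs fell below 1.5 fold. The filter at the 25th percentile removed Vars, Aars2, Sars2 and Vars2, so that 1 member passed at 2 months, and the other genotype calls of the 9 tested members named were kept. FDR under 0.05 alone gave 2, 6, 7 and 4 members in place of DEGs, and a 1.5 fold threshold left 0 members in the 3 age comparisons and 0 in the interaction of 4 and 2 months. Leaving out 1 library gave 1 to 3, 3 to 7, 6 to 8 and 4 to 5 members at the 4 ages, 1 to 2 DEGs at 4 months (2 without rTg4510 replicate 1), 0 to 1 at 6 months (0 without rTg4510 replicate 4), 2 to 6 members for rTg4510 4 against 2 months, 3 to 7 for 8 against 2 months, and 0 to 1 for WT. The cytosolic median at 2 months, Gars included, was then 0.0532 to 0.12, and the mitochondrial median was -0.081 to 0.0496 at 2 months and -0.0509 to 0.0547 at 4 months, so its sign was not stable at those ages. With the replicate block 1, 5, 7 and 4 members passed at the 4 ages; the calls of Vars at 2 and 4 months were lost (FDR 0.11 and 0.12), ages at which the numbers were not taken to pair libraries, and the block changed no other call of a member. Among values of single tested members under an alternative, 412 stayed on their side of the threshold, 49 no longer passed and 2 newly passed. A further 1 that had passed reversed its sign. Values that had not passed could change sign within the 412. Cars at 6 months, for example, was at 0.0035 and reached -0.0597 when 1 library was left out. The cause was not tested. Read depth is unknown and could not be weighed.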
